A study of Mus musculus with 27 samples.

Results

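The genes of uridine salvage and of equilibrative nucleoside transport were followed across all libraries of mouse splenic B cells in this series. They are 8 genes chosen by name, out of 54532 genes in the count and FPKM tables: the kinases Uck1, Uck2 and Uckl1, the phosphoribosyltransferase Uprt, the phosphorylase Upp1, and the transporters Slc29a1, Slc29a2 and Slc29a3. All 8 were present in the tables. B cells came from the spleens of wild-type C57BL6 mice, were enriched by removal of other cells, and were kept in culture for 3 h before poly-A RNA sequencing. Experiment 1 had 5 groups of 4 libraries: unstimulated, LPS with vehicle, LPS with disulfiram (DSF), IL-4+anti-CD40 with vehicle, and IL-4+anti-CD40 with DSF. Experiment 2 had 7 libraries, 1 per condition: the same 5 conditions plus each stimulus with ibrutinib, a BTK inhibitor. DSF and ibrutinib were given at 1 uM, and DMSO was the vehicle of the cells without inhibitor. The paper's figure legends describe the cells given an inhibitor as pre-treated. A fall with an inhibitor therefore means a lower level at 3 h than with the stimulus alone. No group received an inhibitor without a stimulus. LPS is a T-cell-independent stimulus acting through Toll-like receptor signalling, and IL-4 with anti-CD40 antibody stands for T-cell help. The study asked how DSF acts on stimulated B cells, with pyrimidine metabolism among the pathways it examined.

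A cell can obtain uridine monophosphate (UMP), the parent of all pyrimidine nucleotides, by building it de novo or by salvaging uridine and uracil. In salvage, equilibrative transporters let nucleosides cross membranes down their gradient, uridine-cytidine kinases phosphorylate uridine and cytidine, uridine phosphorylase splits uridine into uracil and ribose-1-phosphate, and a phosphoribosyltransferase reaction can turn uracil into UMP. Resting lymphocytes meet much of their need by salvage, and dividing lymphocytes also rely on the de novo route. Slc29a1 (ENT1) and Slc29a2 (ENT2) act mainly at the cell surface, whereas Slc29a3 (ENT3) is a transporter of lysosomes. Uprt resembles uracil phosphoribosyltransferases of other organisms, but the activity of the mammalian protein is uncertain.

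In mm10, the build of the files, Uck1 lies at chr2:32255002-32260159 on the minus strand, Uck2 at chr1:167222883-167285320 on the minus strand and Uckl1 at chr2:181569149-181584892 on the minus strand. Uprt lies at chrX:104482818-104507490 on the plus strand and Upp1 at chr11:9118103-9136170 on the plus strand. The transporters lie on separate chromosomes, Slc29a1 at chr17:45585200-45599606 (minus), Slc29a2 at chr19:5024006-5031971 (plus) and Slc29a3 at chr10:60712072-60752794 (minus). All are annotated as protein coding. Uckl1 shares 2790 bases with Zfp512b on the same strand and 6413 bases with the antisense gene Uckl1os. Over the 20 libraries of experiment 1, Uckl1 had 15323 counts, Zfp512b 11625 and Uckl1os 555. Slc29a1 shares 2258 bases with the antisense gene Gm17080, which had 482 counts against 18948 for Slc29a1. Uck2 shares 9036 bases with the antisense gene Gm37982, which had 36 counts against 47245 for Uck2. The shared bases are those of whole genes, introns included, and the overlap of exons was not measured. The strand setting of the counting was not given in the sources used here, so reads from any exons overlapping on opposite strands cannot be told apart. The overlap of Uckl1 with Zfp512b is on the same strand and does not depend on that setting. The Uckl1 values carry the uncertainty from overlaps most.

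The start regions of Uck2, Slc29a1 and Slc29a2 are shown because these 3 genes were higher with both stimuli and lower with the stimulus and DSF. Each window holds 250 bases before and 50 after the RefSeq start site in GRCm38.p6, the assembly that mm10 names, read 5′ to 3′ on the strand of the gene: Uck2 chr1:167285078-167285377 (minus), Slc29a1 chr17:45599569-45599868 (minus) and Slc29a2 chr19:5023756-5024055 (plus). Capitals mark matches on either strand to a GC box, searched as GGGCGG. They also mark the CCAAT box, which is its own search string, and matches to an antioxidant response element core, searched with 3 free positions as TGACNNNGC.
Uck2: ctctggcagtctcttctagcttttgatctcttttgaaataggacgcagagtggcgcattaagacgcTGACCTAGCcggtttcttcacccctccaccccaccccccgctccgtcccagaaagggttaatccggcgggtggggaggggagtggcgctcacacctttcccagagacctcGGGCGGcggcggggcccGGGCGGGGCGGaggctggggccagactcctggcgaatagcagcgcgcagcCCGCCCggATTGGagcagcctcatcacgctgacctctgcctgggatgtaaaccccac
Slc29a1: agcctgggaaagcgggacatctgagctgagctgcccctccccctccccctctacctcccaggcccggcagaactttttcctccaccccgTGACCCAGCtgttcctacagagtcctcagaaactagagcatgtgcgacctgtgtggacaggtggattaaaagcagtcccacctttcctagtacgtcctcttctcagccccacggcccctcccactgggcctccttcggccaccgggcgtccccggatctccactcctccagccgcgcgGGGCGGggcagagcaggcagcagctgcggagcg
Slc29a2: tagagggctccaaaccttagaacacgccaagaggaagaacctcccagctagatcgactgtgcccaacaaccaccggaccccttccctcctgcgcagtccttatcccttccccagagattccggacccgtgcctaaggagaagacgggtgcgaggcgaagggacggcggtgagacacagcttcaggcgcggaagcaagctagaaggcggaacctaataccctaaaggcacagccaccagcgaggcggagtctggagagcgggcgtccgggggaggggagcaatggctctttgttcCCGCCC

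Windows were found for all 8 genes, and 1 was searched per gene, the one whose start site lies nearest to the gene's start in the files. RefSeq lists 8 windows for Slc29a1, 3 for Upp1, 2 for Uck1 and 2 for Uckl1, and the other windows were not searched. The Uckl1 start used lies 2910 bases from that of the files. Uck2 had 4 GC boxes, beginning 74, 57, 52 and 7 bases before the start site, of which the pair at 57 and 52 share a base. It also had a CCAAT box at base 2 after the start and an antioxidant response element core 184 bases before it. Slc29a1 had a GC box at base 18 after the start and the antioxidant response element core 161 bases before it. Slc29a2 had a single GC box, at base 45 after the start. Among the other genes, Slc29a3 had 3 GC boxes and 2 CCAAT boxes, and Uprt had 1 of each. Uckl1 and Upp1 had 1 GC box each, and Uck1 had no match. These motifs are common: of all 32851 windows in the RefSeq table, 35.7% held a GC box, 37.4% a CCAAT box and 12.4% the antioxidant response element core. An E-box (CACGTG) was in 7.15% of windows and a STAT-type palindrome (TTCNNNGAA) in 8.3%, and neither was in the 8 windows searched. A match describes the letters only.

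Total counts were between 17804851 and 23632992 per library in experiment 1 and between 16049295 and 24619776 in experiment 2. Summed B-cell markers were at 2660 to 9410 CPM (counts scaled to library size) in experiment 1. Markers of other cells were lower, at 20.2 to 52.1 CPM for T cells, 0.111 to 2.46 for NK cells, 7.87 to 44.5 for neutrophils, 1.29 to 18.2 for erythroid cells, 127 to 734 for monocytes and macrophages and 234 to 509 for plasma cells. Of the neutrophil markers, Ly6g had 0 to 2 counts per library, Elane 1 to 62, Mpo 3 to 106, S100a8 41 to 326 and S100a9 71 to 511. Among T-cell markers, Lck had 329 to 983 counts per library and each of the others at most 94. Among monocyte and macrophage markers, Lyz2 had 1082 to 12772 and each of the others at most 2881. The 4 unstimulated libraries fell into 2 pairs. Mean levels of replicates 1 and 2 against replicates 3 and 4 differed by at least 2-fold in 654 of 8437 genes (7.75%), and in 4 to 162 genes (0.0474% to 1.92%) for the same split in the other groups. B-cell markers were at 6320 and 6260 CPM in unstimulated replicates 1 and 2 and at 9320 and 9410 in replicates 3 and 4, while neutrophil markers were at 44.5, 42.9, 9.84 and 14.8 and erythroid markers at 3.63, 2.78, 15.7 and 18.2 in the same order. The labels give no batch, so the log2 fold changes of each stimulus alone against unstimulated cells are also given with either pair alone, a choice made after seeing the data.

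**Figure D1:**
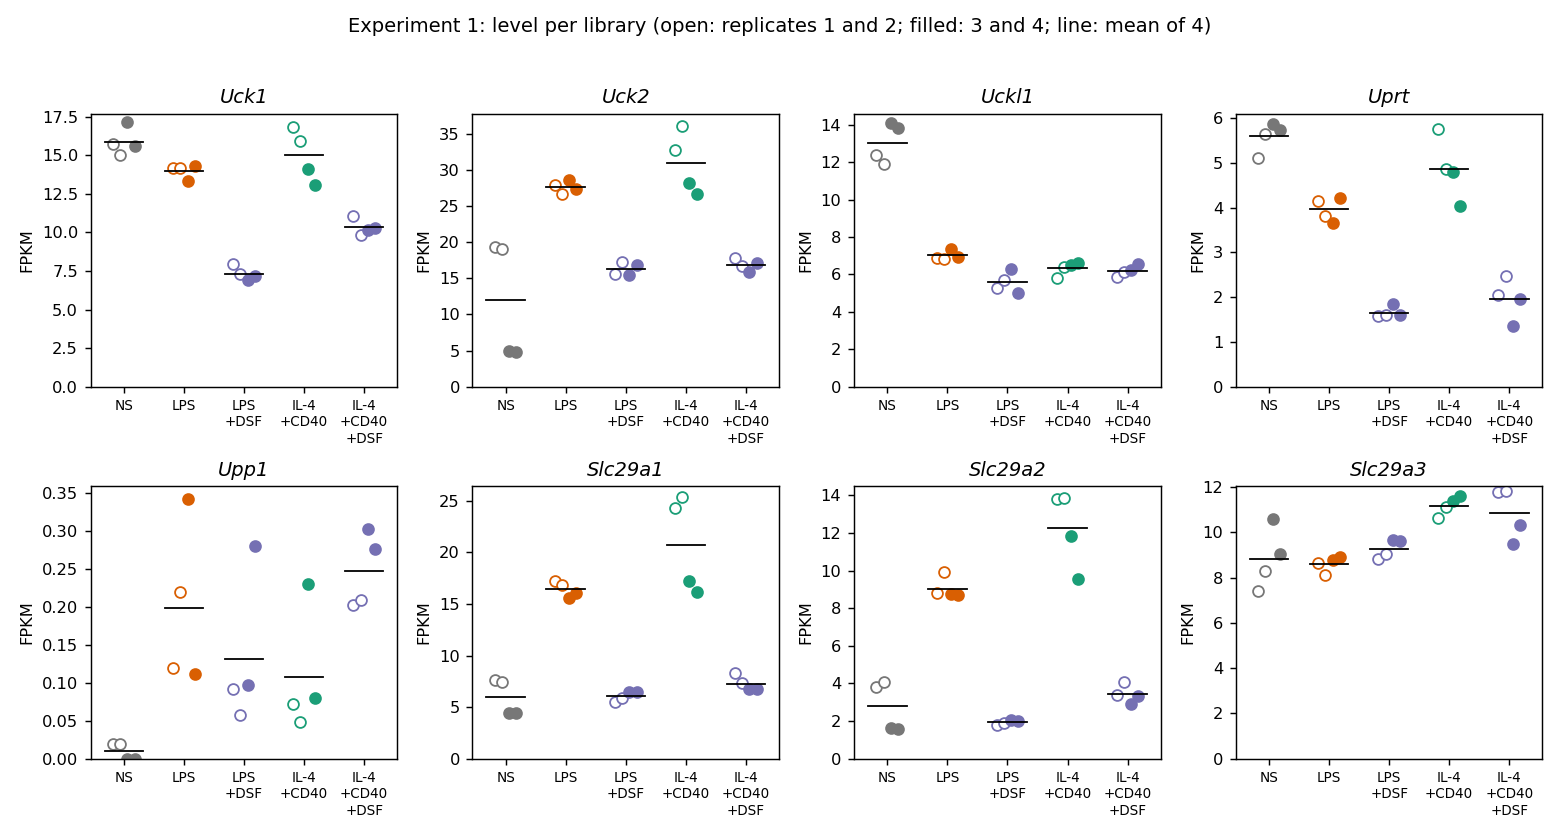
FPKM of the 8 genes in each library of experiment 1, by group. Points are libraries (4 per group) and bars are group means. Uck2, Slc29a1 and Slc29a2 were highest with a stimulus and lower with the stimulus and DSF, and their unstimulated libraries split into a higher and a lower pair.

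Stimulation under LPS raised Uck2 and the surface transporters Slc29a1 and Slc29a2, and lowered Uck1, Uckl1 and Uprt. IL-4+anti-CD40 raised the same 3 genes and Slc29a3, and lowered Uckl1. In edgeR's quasi-likelihood test over all genes, with a Benjamini-Hochberg adjusted p of 0.05 as threshold, 7 of the 8 genes had enough counts to be tested in each comparison, and Upp1 did not. Under LPS 3 of the 7 were higher and 3 lower, where 29.5% of all 14477 genes tested were higher and 33.2% lower. Under IL-4+anti-CD40 4 were higher and 1 lower, where 30.4% of 14433 genes were higher and 32.0% lower. The median log2 fold change of the 7 genes was −0.02 under LPS and 0.36 under IL-4+anti-CD40, against −0.05 and −0.04 over all genes. Both comparisons share the unstimulated libraries.

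Uck2, the more active of the uridine-cytidine kinases, was at 19.3, 19.1, 5.00 and 4.80 FPKM in unstimulated replicates 1 to 4. It was at 28.0, 26.7, 28.7 and 27.4 FPKM under LPS and at 32.8, 36.2, 28.2 and 26.8 FPKM under IL-4+anti-CD40. All 8 stimulated libraries lay above all unstimulated ones, and the unstimulated libraries lay far apart, with replicates 3 and 4 at the low end. The log2 fold change was 1.22 (SE 0.456, edgeR adjusted p = 0.0427) under LPS and 1.40 (SE 0.461, edgeR adjusted p = 0.0260) under IL-4+anti-CD40. Against unstimulated replicates 1 and 2 alone it was 0.56 under LPS and 0.70 under IL-4+anti-CD40, and against replicates 3 and 4 alone it was 2.53 and 2.68. Both calls depended on single libraries and on the processing: the LPS call was lost without unstimulated replicate 3 (0.98), without unstimulated replicate 4 (0.96) or without any of the 4 LPS libraries, and the IL-4+anti-CD40 call was lost without unstimulated replicate 3 (1.11), or without IL-4+anti-CD40 replicate 1 or 2 (1.11 to 1.71 over the 8 libraries left out). The LPS call was also lost with total counts (0.98), and both calls were lost without a filter on low counts (1.22 and 1.38).

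Uck1, the sister kinase, was at 15.8, 15.0, 17.2 and 15.6 FPKM in unstimulated cells. Under LPS it was at 14.2, 14.2, 13.4 and 14.3 FPKM, and under IL-4+anti-CD40 at 16.9, 15.9, 14.1 and 13.1 FPKM. The LPS libraries all lay below the unstimulated ones, and the IL-4+anti-CD40 libraries overlapped them. The log2 fold change under LPS was −0.17 (SE 0.0607, edgeR adjusted p = 0.0359), and this call was lost when any library but unstimulated replicate 2 was left out (−0.18 to −0.12). It was also lost with DESeq2 (−0.14), with its size factors in edgeR (−0.14), without a filter on low counts (−0.17) and against unstimulated replicates 1 and 2 alone (−0.11), and kept against replicates 3 and 4 alone (−0.20). Under IL-4+anti-CD40 it was −0.06 (edgeR adjusted p = 0.599), and −0.030 and −0.11 with either pair. Uckl1, a kinase-like relative, was at 12.4, 11.9, 14.1 and 13.8 FPKM in unstimulated cells. It was at 6.89, 6.85, 7.38 and 6.95 FPKM under LPS and at 5.82, 6.41, 6.51 and 6.60 FPKM under IL-4+anti-CD40. No stimulated library reached the lowest unstimulated one. Uckl1 fell by 0.88 on the log2 scale under LPS (SE 0.0757, edgeR adjusted p = 1.85e-05) and fell by 1.02 under IL-4+anti-CD40 (SE 0.0878, edgeR adjusted p = 1.81e-05). Against unstimulated replicates 1 and 2 alone Uckl1 was at −0.76 and −0.93, and against replicates 3 and 4 alone at −0.96 and −1.12, all called.

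Uprt was at 5.12, 5.65, 5.86 and 5.75 FPKM in unstimulated cells. Under LPS it was at 4.15, 3.82, 3.67 and 4.21 FPKM, all below the unstimulated libraries, and under IL-4+anti-CD40 it was at 5.75, 4.88, 4.79 and 4.05 FPKM, of which replicate 1 lay among them. Uprt fell by 0.48 on the log2 scale under LPS (SE 0.0952, edgeR adjusted p = 0.00204). Under IL-4+anti-CD40 the difference was −0.18 (edgeR adjusted p = 0.249), and with total counts it was −0.33 and called. With either unstimulated pair the values were −0.42 and −0.52 under LPS, both called, and −0.14 and −0.23 under IL-4+anti-CD40, neither called.

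Slc29a1, the transporter ENT1, was at 7.64, 7.48, 4.47 and 4.39 FPKM in unstimulated cells. It was at 17.2, 16.9, 15.6 and 16.1 FPKM under LPS and at 24.3, 25.4, 17.2 and 16.1 FPKM under IL-4+anti-CD40. The lowest stimulated library was far above the highest unstimulated one, and replicates 1 and 2 were the high ones under IL-4+anti-CD40 as well. The rise was 2.78-fold under LPS (log2 fold change 1.47, SE 0.185, edgeR adjusted p = 0.000169) and 3.52-fold under IL-4+anti-CD40 (log2 fold change 1.82, SE 0.234, edgeR adjusted p = 0.000181). Against unstimulated replicates 1 and 2 alone the log2 fold change was 1.15 under LPS and 1.46 under IL-4+anti-CD40, and against replicates 3 and 4 alone 1.92 and 2.25.

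Slc29a2, the transporter ENT2, was at 3.84, 4.09, 1.65 and 1.60 FPKM in unstimulated cells. It was at 8.80, 9.92, 8.74 and 8.71 FPKM under LPS and at 13.8, 13.9, 11.9 and 9.58 FPKM under IL-4+anti-CD40. Stimulated and unstimulated libraries did not overlap. The rise was 3.27-fold under LPS (log2 fold change 1.71, SE 0.306, edgeR adjusted p = 0.00128) and 4.47-fold under IL-4+anti-CD40 (log2 fold change 2.16, SE 0.323, edgeR adjusted p = 0.000416). With either unstimulated pair alone the log2 fold change stayed above 0, at 1.22 and 2.51 under LPS and 1.64 and 2.94 under IL-4+anti-CD40.

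Slc29a3, the lysosomal transporter, was at 7.41, 8.27, 10.6 and 9.05 FPKM in unstimulated cells. It was at 8.63, 8.12, 8.76 and 8.91 FPKM under LPS, within the unstimulated range, and at 10.6, 11.1, 11.4 and 11.6 FPKM under IL-4+anti-CD40, all above the unstimulated libraries. The log2 fold change was −0.02 under LPS (SE 0.107, edgeR adjusted p = 0.857) and 0.36 under IL-4+anti-CD40 (SE 0.110, edgeR adjusted p = 0.0176). Under LPS the unstimulated pairs gave opposite calls, 0.16 against replicates 1 and 2 and −0.16 against replicates 3 and 4, and total counts gave a call of −0.25. Under IL-4+anti-CD40 the values against the pairs were 0.52 and 0.21, both called, and the call was lost with total counts (0.22). Summed monocyte and macrophage markers were at 624 to 734 CPM in unstimulated libraries and at 127 to 257 CPM in all others, and their part in these differences was not tested. In bulk RNA, fewer cells of a type and less RNA per cell cannot be told apart.

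**Figure D2:**
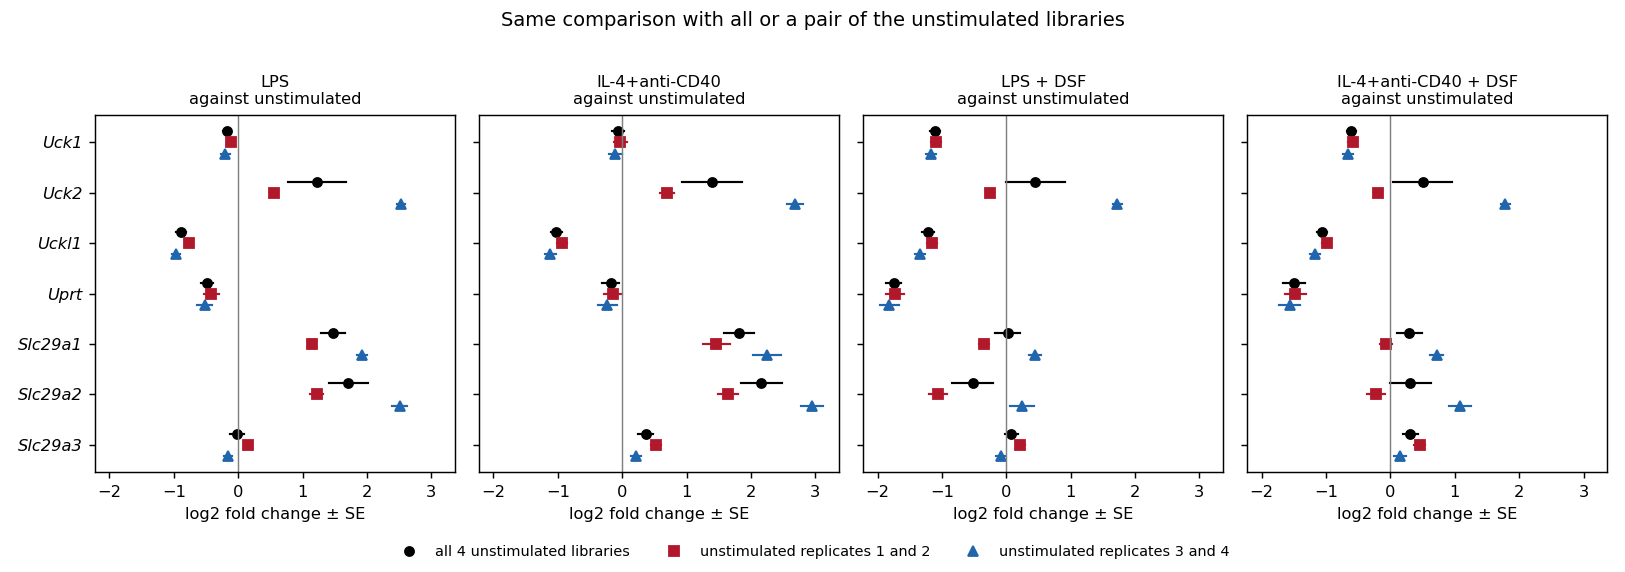
Log2 fold changes of the tested genes against unstimulated cells, computed with all 4 unstimulated libraries, with replicates 1 and 2 alone and with replicates 3 and 4 alone. Uck2 moved furthest with the choice, from 0.56 to 2.53 under LPS.

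Set against each other, the stimuli left Uckl1 higher and Slc29a2 and Slc29a3 lower under LPS than under IL-4+anti-CD40, so 1 of 7 was higher and 2 of 7 were lower where 22.3% of 14078 genes were higher and 17.3% lower. The median of the 7 genes was −0.25, against −0.01 over all genes. The log2 fold change was 0.20 for Uckl1 (SE 0.0668, edgeR adjusted p = 0.0300), −0.39 for Slc29a2 (SE 0.104, edgeR adjusted p = 0.00787) and −0.33 for Slc29a3 (SE 0.0547, edgeR adjusted p = 0.000226). Slc29a2 overlapped nowhere except between IL-4+anti-CD40 replicate 4 and LPS replicate 2, while Slc29a3 did not overlap. Slc29a1 differed by −0.28 (95% interval −0.62 to 0.05), so a difference in its level was not resolved. The Uckl1 call was lost when 5 of the 8 libraries were left out in turn (0.16 to 0.22), and also with DESeq2 (0.18), total counts (0.062), limma on log2 of FPKM plus 0.1 (0.15) and the single fit of all 20 libraries (0.19), where Slc29a2 lost its call too (−0.40). These counts rested on the IL-4+anti-CD40 libraries: without replicate 4 of that group 6 of 7 genes were called, with its replicates 1 and 2 alone all 7, and with its replicates 3 and 4 alone only Slc29a3.

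DSF lowered both uridine-cytidine kinases, Uprt and both surface transporters in cells given either stimulus. Under LPS it also lowered Uckl1, and Slc29a3 was slightly higher. Under LPS, DSF lowered 6 of 7 genes and raised 1, where 36.1% of 14154 genes were lower and 35.0% higher. Under IL-4+anti-CD40 it lowered 5 of 7 and raised none, where 31.6% of 14275 genes were lower and 30.1% higher. The median log2 fold change of the 7 genes was −0.91 under LPS and −0.90 under IL-4+anti-CD40, against 0.00 and −0.02 over all genes. Summed B-cell markers were also lower with DSF, at 4290 to 4410 CPM under LPS against 2660 to 2730 under LPS and DSF, and at 4180 to 4650 CPM under IL-4+anti-CD40 against 2960 to 3150 with DSF added, and their part in the result was not tested. Summed markers of T cells were lower with DSF too, at 31 to 34.5 CPM against 24.2 to 26.4 under LPS and 24.3 to 27.1 against 20.2 to 20.9 under IL-4+anti-CD40. Most counts of that sum came from a single gene, Lck. Plasma cell markers were higher with DSF under LPS, at 305 to 325 CPM against 234 to 250, and at 409 to 431 against 398 to 411 under IL-4+anti-CD40. The part of either was not tested.

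With DSF, Uck2 was at 15.6, 17.3, 15.4 and 16.9 FPKM in LPS-stimulated cells and at 17.8, 16.7, 15.9 and 17.1 FPKM in IL-4+anti-CD40-stimulated cells. All 8 lay below every library with the stimulus alone, and the libraries of a group were close together. Uck2 was 1.68-fold lower under LPS (log2 fold change −0.75, SE 0.0445, edgeR adjusted p = 3.67e-18) and 1.86-fold lower under IL-4+anti-CD40 (log2 fold change −0.90, SE 0.0809, edgeR adjusted p = 8.12e-07). The call under LPS was lost in a single fit of all 20 libraries, in which the unstimulated libraries enter the estimate of spread, at a log2 fold change of −0.76.

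Uck1 was at 7.94, 7.32, 6.88 and 7.20 FPKM under LPS and DSF and at 11.1, 9.87, 10.2 and 10.3 FPKM under IL-4+anti-CD40 and DSF. All 8 lay below every library with the same stimulus alone. It was 1.88-fold lower under LPS (log2 fold change −0.91, SE 0.0671, edgeR adjusted p = 2.26e-15) and 1.47-fold lower under IL-4+anti-CD40 (log2 fold change −0.56, SE 0.0821, edgeR adjusted p = 4.52e-05). Uckl1 was at 5.28, 5.70, 6.29 and 5.03 FPKM under LPS and DSF, below all LPS libraries, and fell by 0.32 on the log2 scale (SE 0.0695, edgeR adjusted p = 0.00011). Under IL-4+anti-CD40 and DSF it was at 5.85, 6.11, 6.24 and 6.56 FPKM, which overlapped the libraries without DSF, at −0.05 (edgeR adjusted p = 0.541).

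Uprt was at 1.59, 1.60, 1.84 and 1.60 FPKM under LPS and DSF and at 2.05, 2.48, 1.36 and 1.96 FPKM under IL-4+anti-CD40 and DSF. No library with DSF came near the lowest one without it. Uprt was 2.37-fold lower under LPS (log2 fold change −1.24, SE 0.129, edgeR adjusted p = 3.7e-11) and 2.52-fold lower under IL-4+anti-CD40 (log2 fold change −1.33, SE 0.166, edgeR adjusted p = 9.55e-06).

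Among the transporters, both that act at the cell surface fell. Slc29a2 was at 1.80, 1.87, 2.04 and 2.02 FPKM under LPS and DSF, and at 3.38, 4.10, 2.93 and 3.34 FPKM under IL-4+anti-CD40 and DSF. These libraries lay far below every stimulated library without DSF. Slc29a2 was 4.62-fold lower under LPS (log2 fold change −2.21, SE 0.0989, edgeR adjusted p = 3.27e-22) and 3.63-fold lower under IL-4+anti-CD40 (log2 fold change −1.86, SE 0.129, edgeR adjusted p = 1.05e-07), the widest change among the 7 genes under both stimuli. Slc29a1 was at 5.48, 5.86, 6.47 and 6.45 FPKM under LPS and DSF and at 8.30, 7.31, 6.79 and 6.73 FPKM under IL-4+anti-CD40 and DSF, again without overlap. It was 2.68-fold lower under LPS (log2 fold change −1.42, SE 0.0610, edgeR adjusted p = 8.01e-23) and 2.89-fold lower under IL-4+anti-CD40 (log2 fold change −1.53, SE 0.158, edgeR adjusted p = 3.89e-05).

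The lysosomal transporter Slc29a3 was at 8.83, 9.05, 9.64 and 9.60 FPKM under LPS and DSF and at 11.8, 11.8, 9.49 and 10.3 FPKM under IL-4+anti-CD40 and DSF, and the libraries with and without DSF overlapped under both stimuli. Its log2 fold change under LPS was 0.13 (SE 0.0533, edgeR adjusted p = 0.0297) with TMM scaling and −0.08 with total counts, and the call was lost when any library but LPS and DSF replicate 1 or 2 was left out (0.08 to 0.15). The call was also lost without a filter on low counts (0.069), in the single fit (0.11) and with limma on log2 of FPKM plus 0.1 (0.11). Under IL-4+anti-CD40 Slc29a3 was at −0.06 (edgeR adjusted p = 0.467), and at −0.21 and called with total counts, as was Uckl1 (−0.20). Scaling by total counts moved the median of all genes to between −0.43 and −0.14 in the 7 pairwise comparisons, against −0.05 to 0.00 with TMM, so fold changes are relative to the TMM scale. Apart from Uck2 in the single fit, the calls of Uck1, Uck2, Uprt, Slc29a1 and Slc29a2 with DSF held under both stimuli in all alternatives with a test on their log2 fold change, including each library left out in turn.

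**Figure D3:**
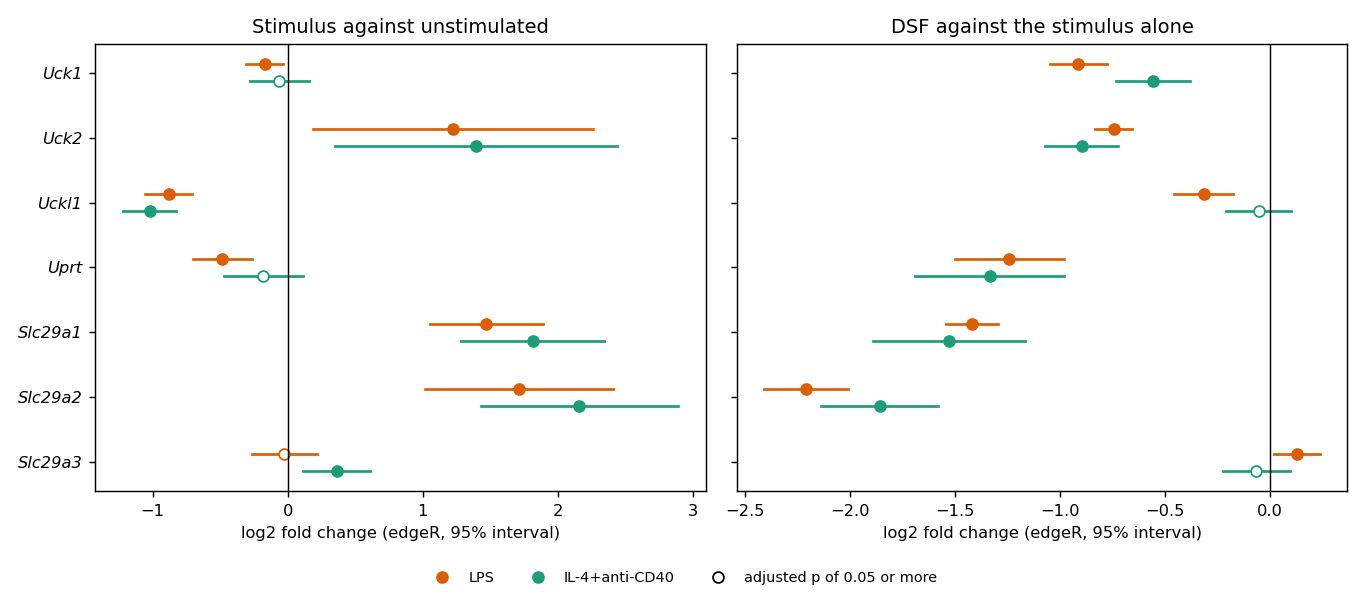
Log2 fold changes with 95% intervals from edgeR for the 7 tested genes, stimulus against unstimulated on the left and DSF against the stimulus alone on the right, 4 libraries per group. Open points had an adjusted p of 0.05 or more. Slc29a1 and Slc29a2 had the largest rises with a stimulus and fell with DSF, and Slc29a3 with DSF in LPS changed sign with total counts (0.13 to −0.08).

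The DSF effect was compared between the stimuli as an interaction over the 16 stimulated libraries. Uck1 was the single gene called of 7, lower under LPS, where 8.03% of 15130 genes were higher and 6.97% lower. The difference for Uck1 was −0.36 (SE 0.105, edgeR adjusted p = 0.0193): its log2 fold change was −0.91 under LPS and −0.56 under IL-4+anti-CD40. The call was lost without IL-4+anti-CD40 and DSF replicate 1 (−0.32) and when IL-4+anti-CD40 replicates 1 and 2 were used alone (−0.24), and it was kept with replicates 3 and 4 alone (−0.50). Differences for the other genes, none called, were 0.15 for Uck2, −0.27 for Uckl1, 0.09 for Uprt, 0.11 for Slc29a1, −0.35 for Slc29a2 and 0.19 for Slc29a3, and the median of the 7 was 0.09 against 0.02 over all genes. Uckl1 was called as well without LPS and DSF replicate 3 (−0.33), with DESeq2 (−0.29), with total counts (−0.32) and with limma on log2 of FPKM plus 0.1 after a filter on low values (−0.30). A missed threshold does not show that DSF acted alike under both stimuli.

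Cells given a stimulus and DSF were also set against unstimulated cells. Uck1, Uckl1 and Uprt were lower than unstimulated with both stimuli, whereas Uck2, Slc29a1 and Slc29a2 were not called in either direction. Under LPS and DSF 3 of 7 genes were lower and none higher, where 37.2% of 14663 genes were lower and 34.2% higher. Under IL-4+anti-CD40 and DSF 3 were lower and Slc29a3 was higher, where 35.2% of 14678 genes were lower and 33.3% higher. The medians of the 7 genes were −0.52 and 0.29, against −0.02 and 0.00 over all genes. The log2 fold changes under LPS and DSF were −1.11 for Uck1 (edgeR adjusted p = 1.71e-06), −1.22 for Uckl1 (edgeR adjusted p = 3.83e-06) and −1.75 for Uprt (edgeR adjusted p = 1.37e-06). Under IL-4+anti-CD40 and DSF they were −0.61, −1.07 and −1.50 in the same order, and 0.31 for Slc29a3 (edgeR adjusted p = 0.0447), a call lost when 6 of the 8 libraries were left out in turn (0.21 to 0.39), with total counts (0.0051), without a filter on low counts (0.25), with a filter of 10 counts in every library (0.30) and with limma on log2 of FPKM plus 0.1 (0.30).

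For Uck2, Slc29a1 and Slc29a2 the unstimulated pairs gave different answers. The 4 Uck2 libraries under LPS and DSF lay between the pairs, below replicates 1 and 2 and above replicates 3 and 4. Its log2 fold change was 0.45 (SE 0.459) with all 4 unstimulated libraries, −0.26 against replicates 1 and 2 and 1.73 against replicates 3 and 4, the last 2 both called. Slc29a1 under LPS and DSF also lay between the pairs, at 0.02, −0.34 and 0.45 in the same order, and again both pair values were called. Slc29a2 was at −0.52, −1.06 and 0.24, of which only −1.06 was called. It was also called without unstimulated replicate 3 (−0.72) or replicate 4 (−0.74), and with total counts (−0.94). Under IL-4+anti-CD40 and DSF the values for the pairs were −0.20 and 1.79 for Uck2, −0.07 and 0.72 for Slc29a1 and −0.22 and 1.08 for Slc29a2. Whether the level with DSF was above or below the resting level of these 3 genes therefore depended on the unstimulated libraries used.

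Upp1, uridine phosphorylase, was near the limit of detection. Its counts in replicates 1 to 4 were 1, 1, 0 and 0 in unstimulated cells, 5, 10, 13 and 4 under LPS, and 3, 2, 10 and 3 under IL-4+anti-CD40. With DSF they were 3, 2, 3 and 10 in LPS-stimulated and 8, 8, 13 and 12 in cells given IL-4+anti-CD40. Summed counts were thus 2 unstimulated, 32 under LPS, 18 under LPS and DSF, 18 under IL-4+anti-CD40 and 41 under IL-4+anti-CD40 and DSF. All stimulated libraries lay above the unstimulated ones, and the LPS libraries overlapped those with DSF. The ratio of LPS to unstimulated was 16.8 (95% exact interval 4.3 to 145), DSF under LPS 0.59 (0.312 to 1.08) and DSF under IL-4+anti-CD40 2.02 (1.14 to 3.74). These intervals cover counting error only, and reads are not independent molecules. In experiment 2 Upp1 had 0 to 5 counts per library.

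Ordered by FPKM, a measure per gene length, Uck2 was the most abundant of the kinases with either stimulus and Uckl1 the least. Under LPS the group means were 27.7 ± 0.844 for Uck2, 13.99 ± 0.426 for Uck1 and 7.02 ± 0.247 for Uckl1 (SD, n = 4), and no library of one reached another. In unstimulated cells the order was not resolved, since Uck2 was at 12.04 ± 8.25 FPKM (SD, n = 4) against 15.9 ± 0.907 for Uck1 and 13.1 ± 1.08 for Uckl1. Among transporters Slc29a1 was on top under LPS, at 16.4 ± 0.737 FPKM (SD, n = 4), with Slc29a2 at 9.04 ± 0.589 and Slc29a3 at 8.60 ± 0.342, neighbours that overlapped. Under LPS and DSF the order was Slc29a3 at 9.28 ± 0.402, Slc29a1 at 6.06 ± 0.483 and Slc29a2 at 1.93 ± 0.118 FPKM (SD, n = 4), without overlap.

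A share within a library does not depend on library scaling. Of the summed FPKM of Uck1 and Uck2, Uck2 held 55.0%, 56.0%, 22.6% and 23.5% in unstimulated replicates 1 to 4, 66.4% ± 1.28 under LPS and 67.3% ± 1.45 under IL-4+anti-CD40 (SD, n = 4). The share was 27.1 points higher than unstimulated under LPS and 28.1 points higher under IL-4+anti-CD40 (two-sided exact permutation test p = 0.0286, adjusted p = 0.0444 over 14 tests for each). DSF left it at 68.9% ± 1.87 under LPS and 62.0% ± 0.843 under IL-4+anti-CD40 (SD, n = 4). The Uck2 share fell by 5.33 percentage points with DSF in IL-4+anti-CD40-stimulated cells (exact p = 0.0286, adjusted p = 0.0444), and the difference in LPS-stimulated cells was 2.52 points (exact p = 0.0857, adjusted p = 0.12). A test of 4 against 4 libraries cannot go below 0.0286. In experiment 2 the Uck2 share was 55.3% unstimulated, 68.8% under LPS and 59.5% with DSF added, so under LPS it moved opposite to experiment 1. It was 70.1% under IL-4+anti-CD40 and 60.9% with DSF added.

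Slc29a1 made up 40.5%, 37.7%, 26.8% and 29.2% of the summed FPKM of the 3 transporters in unstimulated replicates 1 to 4. It made up 48.2% ± 1.10 under LPS and 46.5% ± 4.20 under IL-4+anti-CD40 (SD, n = 4), and 35.1% ± 0.788 and 33.8% ± 1.91 with DSF. The groups with and without DSF did not overlap. The share fell by 13.1 points with DSF under LPS and by 12.7 points under IL-4+anti-CD40 (exact permutation test p = 0.0286, adjusted p = 0.0444 for each). Against unstimulated cells the mean shares with DSF differed by 1.54 points (exact permutation test p = 0.629) and 0.28 points (exact p = 0.943). All libraries with DSF lay below unstimulated replicates 1 and 2 and above replicates 3 and 4. These differences therefore depended on the unstimulated libraries used. In experiment 2 the share was 43.1% under LPS and 29.1% with DSF added, and 44.7% under IL-4+anti-CD40 and 29.7% with DSF added.

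**Figure D4:**
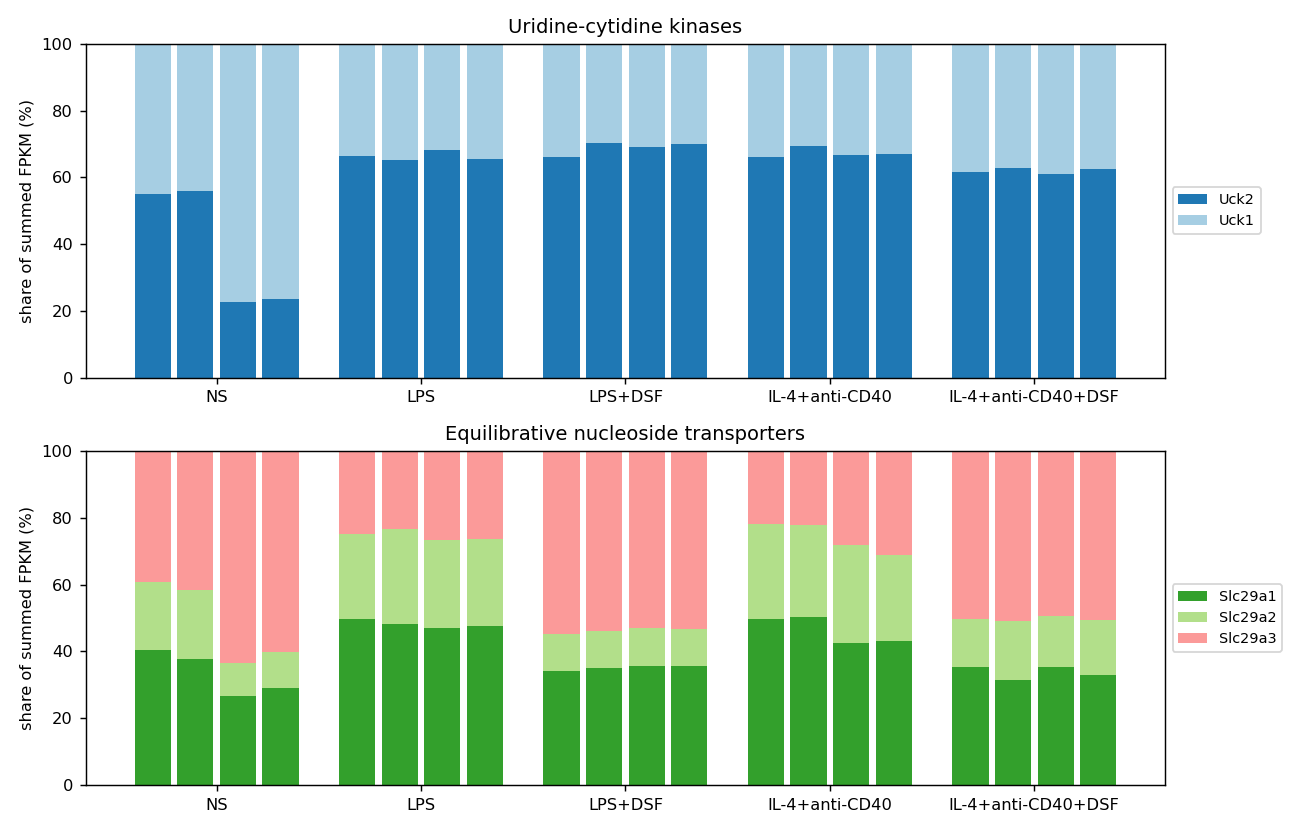
Percent of the summed FPKM of Uck1 and Uck2 held by Uck2, and of the 3 transporters held by Slc29a1, in each library of experiment 1. Each bar is 1 library (4 libraries per group), stacked by gene. The Slc29a1 share was higher with a stimulus alone than with the stimulus and DSF in every library.

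Experiment 2 gave the same conditions once more, with ibrutinib beside DSF at the same dose and time. There is 1 library per condition, so its ratios have no replicate check and no test. Intervals there are 95% exact intervals that cover counting error only, and ratios past 2-fold were counted among 14275 genes, those averaging 10 or more counts. DSF took 5 of 7 genes past 2-fold lower under LPS and 6 of 7 under IL-4+anti-CD40, and none past 2-fold higher, where 19.5% and 20.3% of genes were lower and 20.3% and 21.9% higher. Ibrutinib took none of the 7 past 2-fold in either direction with either stimulus, where 2.47% and 1.69% of genes were lower and 2.81% and 2.23% higher. Smaller falls were common with ibrutinib, with 5 of 7 log2 ratios below 0 under each stimulus. The median of the 7 was −0.535 under LPS and −0.371 under IL-4+anti-CD40, against 0.009 and 0.004 over all genes. LPS and IL-4+anti-CD40 alone took Slc29a1 and Slc29a2 past 2-fold higher and none lower, where 8.62% and 10.7% of genes were higher and 9.88% and 13.7% lower.

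In experiment 2, Uck2 was at 18.4 FPKM unstimulated, 32.7 under LPS, 9.01 under LPS and DSF, and 22.2 under LPS and ibrutinib. Under IL-4+anti-CD40 it was at 33.5 FPKM, with DSF at 9.12 and with ibrutinib at 20.8. Both inhibitors left Uck2 below the stimulus alone, with DSF the lower and below the unstimulated library. The log2 ratio was −1.85 (−1.96 to −1.74) for DSF and −0.54 (−0.61 to −0.46) for ibrutinib under LPS, and −1.86 (−1.98 to −1.75) and −0.68 (−0.75 to −0.61) under IL-4+anti-CD40.

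Slc29a1 was at 6.87 FPKM unstimulated, 17.1 under LPS, 4.08 under LPS and DSF, and 10.4 under LPS and ibrutinib. Under IL-4+anti-CD40 it was at 24.3, 4.62 and 12.7 FPKM in the same order. Its log2 ratio was −2.06 for DSF and −0.71 for ibrutinib under LPS, and −2.38 and −0.93 under IL-4+anti-CD40. The ibrutinib ratio was lower than that of all but 5.48% of genes under LPS and all but 2.03% under IL-4+anti-CD40. Slc29a2 was at 2.38 FPKM unstimulated, 10.4 under LPS, 0.727 under LPS and DSF, and 6.26 under LPS and ibrutinib, and at 8.80, 0.820 and 6.76 FPKM under IL-4+anti-CD40 in the same order. The DSF ratios of Slc29a2 were −3.76 (−4.41 to −3.31) and −3.35 (−4.01 to −2.87), resting on 31 and 29 counts, and those of ibrutinib were −0.71 and −0.37.

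Uck1 was lower with DSF and near the level of the stimulus alone with ibrutinib. It was at 14.8 FPKM under LPS, 6.13 with DSF added and 14.9 with ibrutinib added, and at 14.3, 5.87 and 14.01 FPKM under IL-4+anti-CD40. The log2 ratio was −1.26 and −1.27 for DSF, and 0.03 (−0.11 to 0.17) and −0.02 (−0.16 to 0.12) for ibrutinib. Uprt was at 3.64, 1.28 and 2.66 FPKM under LPS and 2.97, 0.910 and 3.72 FPKM under IL-4+anti-CD40, so ibrutinib lay on either side of the stimulus alone. Against the unstimulated library, the Uprt log2 ratio was −0.605 under LPS alone and −0.911 (−1.24 to −0.613) under IL-4+anti-CD40 alone. Experiment 1 had −0.48 under LPS and −0.18, not called, under IL-4+anti-CD40. The log2 ratio of Uckl1 with DSF was 0.18 (−0.0079 to 0.365) under LPS, an interval that includes 0 where experiment 1 had a fall of 0.32, and 0.28 (0.085 to 0.476) under IL-4+anti-CD40. With ibrutinib it was 0.23 and 0.22. Slc29a3 was at 12.2, 9.20 and 7.22 FPKM under LPS and 21.3, 10.1 and 14.5 FPKM under IL-4+anti-CD40, and the DSF ratio under IL-4+anti-CD40 was −1.06, unlike the −0.06 of experiment 1. Under LPS its DSF ratio was −0.407 (−0.53 to −0.285), where experiment 1 had 0.13. Its ibrutinib ratios were −0.74 under LPS and −0.55 under IL-4+anti-CD40. Monocyte and macrophage markers in experiment 2 were at 15.8 to 51.1 CPM, highest with DSF, and their part was not tested.

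**Figure D5:**
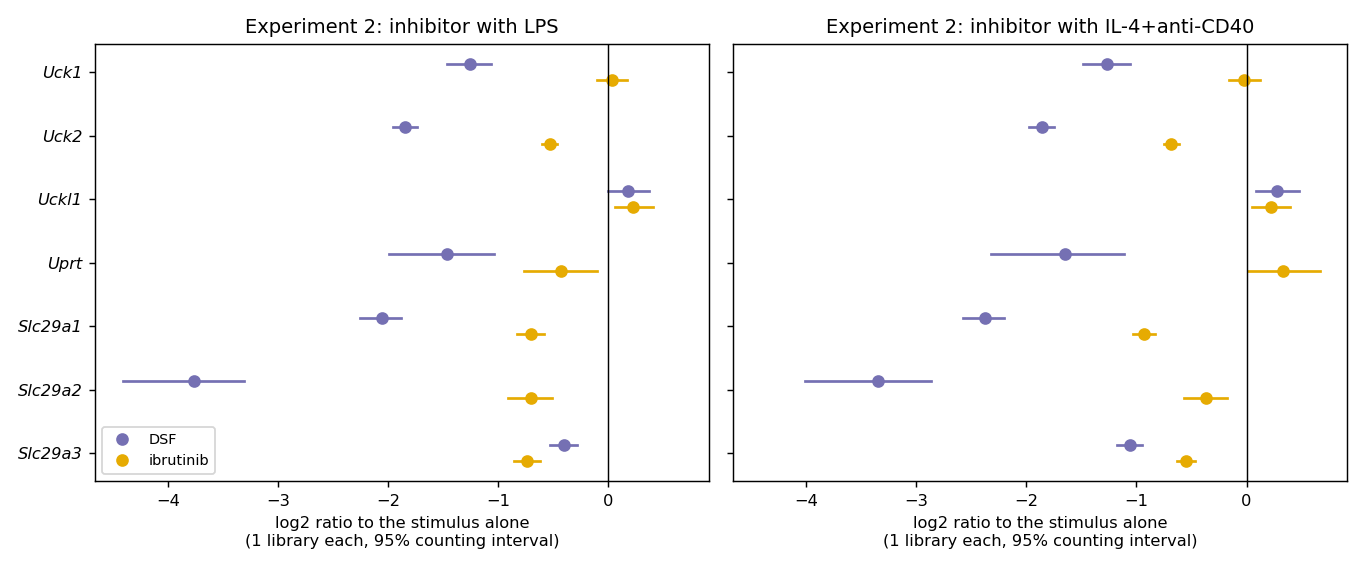
Log2 ratios of DSF and of ibrutinib against the stimulus alone in experiment 2, under LPS and under IL-4+anti-CD40, for the 7 genes with enough counts. Lines are 95% counting intervals from 1 library per condition. DSF ratios of Slc29a2 lay at −3.76 and −3.35, and ibrutinib ratios of Uck1 lay at 0.03 and −0.02.

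The neighbouring pyrimidine genes were taken as 40 genes in 6 lists, of which 30 or 31 could be tested. DSF left 19 of 30 lower and 4 higher under LPS (median log2 fold change −0.44), where 36.1% of all genes were lower and 35.0% higher (median 0.00). It left 17 of 31 lower and 7 higher under IL-4+anti-CD40 (median −0.28), where 31.6% of all genes were lower and 30.1% higher (median −0.02). De novo UMP synthesis and PRPP supply had the most uniform direction, with 6 of 7 lower under LPS (median −0.91) and 7 of 7 under IL-4+anti-CD40 (median −0.76). Cad, which carries the opening steps of the de novo route, fell by 1.81 on the log2 scale under both stimuli, and Dhodh, which follows it in the mitochondrion, fell by 1.43 under LPS and by 1.39 under IL-4+anti-CD40. The study itself examined genes of this pathway in these samples, so the lists are not independent evidence of direction. Of the other salvage genes, 2 of 5 were lower under LPS, and 3 lower and 2 higher under IL-4+anti-CD40. Dctd, a deoxycytidylate deaminase, fell by 2.21 and 2.24 on the log2 scale.

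Against that direction, Upb1, which acts in uracil breakdown, rose by 1.58 on the log2 scale with DSF under LPS and by 1.18 under IL-4+anti-CD40, and Nme2, a nucleoside diphosphate kinase, rose by 1.28 and 0.58. Of the 2 breakdown genes tested, 1 was higher and 0 lower under LPS, and 1 higher and 1 lower under IL-4+anti-CD40. The 5'-nucleotidases were mixed, with 4 lower and 2 higher of 6 under LPS and 2 lower and 2 higher under IL-4+anti-CD40. Of the steps from UMP to UTP and CTP, 6 of 8 were lower and 1 higher under LPS, and 4 of 9 lower and 1 higher under IL-4+anti-CD40. Among the other nucleoside transporters 2 could be tested, and Slc28a2, a concentrative transporter, fell by 0.46 with DSF under LPS and rose by 0.72 under IL-4+anti-CD40. The stimuli alone moved the 31 tested genes both ways, with 12 higher and 13 lower for LPS and 11 higher and 12 lower for IL-4+anti-CD40, against 29.5% and 33.2% of all genes for LPS and 30.4% and 32.0% for IL-4+anti-CD40. Nme2 rose with both, by 2.25 and 2.99. LPS against IL-4+anti-CD40 left 10 higher and 6 lower of 31, against 22.3% and 17.3% of all genes. Cmpk2, a mitochondrial pyrimidine nucleotide kinase, led the higher ones at 5.74. Against unstimulated cells 8 of 30 were higher and 18 lower under LPS and DSF, and 7 of 31 higher and 18 lower under IL-4+anti-CD40 and DSF, against 34.2% and 37.2%, and 33.3% and 35.2%, of all genes. The difference between the stimuli was called in 2 of 31 genes higher and 5 lower, against 8.03% and 6.97% of all genes.

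For the 3 genes with the widest range of group means, Slc29a2 (2.59 on the log2 CPM scale), Upp1 (2.36) and Slc29a1 (1.78), the genes with the most similar profile were listed by the root mean square difference of centred log2 CPM over the 20 libraries. Nearest to Slc29a1 were Thop1 (0.145), Mettl13 (0.152) and Ung (0.153). Nearest to Slc29a2 were Chst10 (0.316), Slc29a1 itself (0.343) and Thop1 (0.346). Those nearest to Upp1, Gstt1 (0.544), Fam83d (0.55) and Mefv (0.571), rest on the few counts of Upp1. The libraries share groups and, among unstimulated cells, the split into pairs, so the measure is a description.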

How the data were processed

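RNA-seq of mouse splenic B cells was analysed, 20 libraries in experiment 1 (5 groups of 4) and 7 in experiment 2. The authors deposited raw counts per gene, made by Fastp trimming, HISAT2 2.0.5 alignment to mm10 and featureCounts 1.5.0-p3 (versions from the submitters' processing notes). The authors also deposited FPKM, calculated from gene length and these counts. The tool for differential expression was not given in the sources used here. Groups were taken from the sample titles. The paper calls the samples of a group biologically independent, and whether each came from its own mouse or culture was not given in the sources used here, so p-values measure the spread between these samples. No pair of replicates agreed within sampling noise.

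Counts were tested with edgeR 4.0.16 in R 4.3.3 (robust quasi-likelihood, TMM, filterByExpr, only the groups compared in each fit), with Benjamini-Hochberg adjustment over all genes tested and a threshold of 0.05. The scripts were tested on simulated data. Alternatives were DESeq2 1.42.0, other scalings and filters, limma 3.58.1 on log2 of FPKM plus 0.1 or 1, a replicate block, and each library left out. Shares were compared by exact permutation tests. Experiment 2 was compared as log2 ratios of CPM with a prior count of 2. Total counts of 17804851 to 23632992 per library leave genes with few counts, such as Upp1, untested in the main tests. Upp1 passed the filter under some alternatives, and it then enters their counts of genes called.

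All 8 genes were named in every comparison. From 6 hand-written pathway lists, counts are given, and genes named came from up to 3 per direction and comparison with the largest called log2 fold change and no overlap between groups. Dhodh with LPS and Slc28a2 with LPS were named outside this rule, after their values were seen, to set them beside the other stimulus. Members and lists were chosen with earlier results of these data known. Marker lists covered B cells, T cells, monocytes and macrophages, neutrophils, erythroid cells, NK cells and plasma cells. Protein sequences were not used here.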

Additional observations from a re-analysis of the deposited data

Results flagged for a closer look

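In groups of 4 libraries, a library was singled out when its gap to the nearest other library, divided by the range of the group, was above Dixon's 95% critical value. Of 40 groups tested (8 genes in 5 groups of experiment 1), 4 were singled out, and chance alone singles out about 1 in 20. Uck1 in LPS replicate 3 was the lowest of its group at 13.4 FPKM (gap over range 0.84). Uprt in LPS and DSF replicate 3 was the highest of its group at 1.84 FPKM (0.964). Upp1 in IL-4+anti-CD40 replicate 3 was the highest at 0.231 FPKM (0.8292), which rests on 10 counts. Slc29a2 in LPS replicate 2 was the highest at 9.92 FPKM (0.929).

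The effect of DSF on Uck1 differed between the stimuli, by −0.36 on the log2 scale (SE 0.105, edgeR adjusted p = 0.0193, interaction over 16 libraries). Uck1 was lower with DSF in all 4 libraries under each stimulus, and more so with LPS. The call was lost without IL-4+anti-CD40 and DSF replicate 1 (−0.32) and with IL-4+anti-CD40 replicates 1 and 2 alone (−0.24). In experiment 2, with 1 library per condition and no test, the log2 ratio of Uck1 with DSF was −1.26 under LPS and −1.27 under IL-4+anti-CD40.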

How the results depend on the processing

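Of 854 values under alternatives chosen with the main tests, 773 were classed as unchanged, and 9 tested values changed sign, 1 of them called. For a tested value, unchanged meant the same direction and the same side of the threshold. For a count of genes it meant a change of at most 1.5 times. For a ratio of experiment 2, which has no test, it meant a value within its counting interval. The counts of genes called changed by over 1.5 times under the settings given here, and the cause was not tested unless the setting itself removes libraries or raises the threshold. Requiring a log2 fold change of at least 1 left 3 genes for LPS against unstimulated, 0 for LPS against IL-4+anti-CD40, 3 for DSF under each stimulus, 2 for IL-4+anti-CD40 and DSF against unstimulated, and 0 for the difference between stimuli. Total counts gave 5 genes for LPS against IL-4+anti-CD40, 5 for LPS and DSF against unstimulated, 2 for the difference between stimuli, and 4 past 2-fold for IL-4+anti-CD40 in experiment 2. A single fit of all 20 libraries gave 1 for LPS against IL-4+anti-CD40. DESeq2, and limma with either 0.1 or 1 added to FPKM after a filter on low values, gave 2 for the difference between stimuli.

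Signs of tested values changed as follows. Slc29a3 with LPS was 0.0035 under DESeq2 and under its size factors. Slc29a3 with DSF under LPS was −0.080 with total counts. Uckl1 with DSF under IL-4+anti-CD40 was 0.0062 in the single fit. For LPS and DSF against unstimulated, total counts gave −0.39 for Slc29a1 and −0.33 for Slc29a3, the latter called, and no filter on low counts gave −0.053 for Slc29a1. For IL-4+anti-CD40 and DSF against unstimulated, total counts gave −0.021 for Slc29a1 and −0.0068 for Slc29a2.

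Leaving out each library in turn gave −0.085 to 0.083 for Slc29a3 with LPS, −0.12 to 0.0067 for Uck1 with IL-4+anti-CD40, 2 to 6 genes called and −0.11 to 0.010 for Uck1 in LPS against IL-4+anti-CD40, −0.12 to 0.12 for Slc29a1 and −0.035 to 0.16 for Slc29a3 in LPS and DSF against unstimulated. For the difference between stimuli it gave 0 to 2 genes called (0 without IL-4+anti-CD40 and DSF replicate 1, and 2 without LPS and DSF replicate 3 or 4 or IL-4+anti-CD40 replicate 3), −0.055 to 0.22 for Uprt and −0.0051 to 0.20 for Slc29a1. Beside Uck1, the second gene called was Uckl1 without LPS and DSF replicate 3. The second gene was Upp1, with its few counts, without LPS and DSF replicate 4 or IL-4+anti-CD40 replicate 3.

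Pairs of libraries were used alone as alternatives chosen after seeing the data. With unstimulated replicates 1 and 2, Slc29a3 with LPS was 0.16, 7 genes were called for LPS and DSF (Uck2 −0.26, Slc29a1 −0.34), and for IL-4+anti-CD40 and DSF Uck2 was −0.20, Slc29a1 −0.070 and Slc29a2 −0.22. With unstimulated replicates 3 and 4, 5 genes were called for LPS and DSF (Slc29a2 0.24, Slc29a3 −0.089) and 7 for IL-4+anti-CD40 and DSF. Slc29a3 was not among those 7 (0.15, edgeR adjusted p = 0.152), and Upp1, which passed the count filter in that fit, was. With IL-4+anti-CD40 replicates 1 and 2, 7 genes were called for LPS against IL-4+anti-CD40, and Uckl1 with DSF was 0.0088. For the difference between stimuli this pair gave 4 genes, which were Uck2, Uckl1, Slc29a1 and Upp1. With IL-4+anti-CD40 replicates 3 and 4, 1 was called for LPS against IL-4+anti-CD40 (Uck1 0.063, Uck2 0.032, Slc29a1 0.0051) and 2 for the difference between stimuli (Uck2 −0.025, Uprt −0.047, Slc29a1 −0.21).

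Replicate numbers did not pair the libraries throughout. Over 40 same-numbered pairs the correlation of deviations ran from −0.131 to 0.437, with 6 above 0.1. In 7 of the 40 the own number was the best match. The highest were between IL-4+anti-CD40 with and without DSF, at 0.437 and 0.433 for replicates 1 and 4. Replicates 2 and 3 of these groups were at 0.0415 and 0.0157. With a replicate block, 5, 5, 3, 7, 5, 3 and 3 genes were called in the pairwise comparisons, in the order of the report, and 1 for the difference between stimuli. The calls of Uck1 with LPS (−0.17) and of Slc29a3 with IL-4+anti-CD40 and DSF (0.32) were the ones lost under the block. Depth limits Upp1, with 0 to 13 counts per library, and the experiment 2 values of Slc29a2 and Uprt with DSF, with 29 to 51 counts.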
